A study of Mus musculus with 12 samples.

Results

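Gadd45g, Gadd45a, Map3k4, Map2k3, Map2k6, Mapk14 and Kdm3a were followed across gonads of both sexes that lacked 1 of the 2 splice forms of the transcription factor WT1. These 7 genes are the growth arrest protein GADD45G, its relative GADD45A, the kinases that link them to p38, p38 alpha itself and the histone demethylase KDM3A. They were chosen by their symbols, for their place in the route that is known to switch on Sry, and are 7 of the 32285 genes counted. All 7 were detected and all 7 passed the filter on low counts.

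GADD45G is a small scaffold protein that binds the kinase MAP3K4 and opens it into its active form. MAP3K4 then phosphorylates MKK3 and MKK6, the products of Map2k3 and Map2k6, and these phosphorylate the p38 kinases, of which p38 alpha (Mapk14) is the broadly used one. In the XY mouse gonad this relay is known to be needed for timely expression of Sry, the Y-linked switch that starts testis development by turning on Sox9, and KDM3A is known to remove a repressive methyl mark from histone H3 at the Sry locus. Most of the relay runs through protein contacts and phosphorylation, which a transcript count does not measure.

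Gonads were taken from embryos at embryonic day 12, staged at 23 ± 3 tail somites, on a mixed B6CBAF1/JRj background, and profiled by droplet single-cell RNA sequencing of transcript 3′ ends. In all, 6 groups of 2 libraries each were compared, namely XX and XY gonads that were wild-type, homozygous for an allele that cannot make the -KTS form (-KTS KO), or homozygous for the Frasier allele that cannot make the +KTS form (+KTS KO). Both alleles are carried in the germ line, so every cell of a mutant embryo has them, and the gonads of several embryos were pooled for -KTS KO samples. Over the 12 libraries 76976 cells were kept of 103730 barcodes, at 108111924 to 147968666 unique molecules (UMIs) a library, and of these cells 66168 were gonadal somatic cells and 18951 belonged to 8 clusters with markers of the supporting lineage, the precursors of Sertoli and granulosa cells.

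The labelled sex matched the sex-linked transcripts in 12 of 12 libraries. The gonadal regulators Wt1, Gata4 and Lhx9 were present in every library, at 158 to 309, 67.2 to 127 and 176 to 379.5 UMIs per 1000000 (CPM). A 3′ count cannot tell the 2 splice forms of Wt1 apart, so the genotype itself was not checked. Pairs of libraries shared between 2 and 32 cell barcodes, at most 0.389% of the smaller library. XY +KTS KO replicate 1 stood apart, with a summed level of 22 immediate early genes of 4192 CPM against 1129.8 to 1772 CPM in the other libraries, and it supplied 98.3% of the cells of 1 supporting cluster led by Cst12, Gm2044 and Pde10a. Supporting cells were 37.9 to 54.3% of somatic cells in the wild-type libraries and 20.5 to 27.7% in the -KTS KO libraries. In +KTS KO they were 2.78 to 4.22% in 3 libraries and 48.1% in XY replicate 1. These +KTS KO shares depended on the clustering, since at a resolution of 1.2 XY replicate 1 held 183 supporting cells of 6414 somatic cells, and with log-normalized clustering XX replicate 2 held 320 of 4315, against 120 of 4313 as reported. A pair of clusters with Cyp11a1 and Pnmt among their leading genes, in which XX +KTS KO gave 64.6 and 59.0% of the cells, met the marker rule for no name. They held 937 and 1052 CPM of Gadd45g, inside the 566 to 1447 CPM of the supporting clusters. Unnamed clusters held 3848 and 1878 cells of XX +KTS KO replicates 1 and 2, and 335 and 3036 of the XY ones. The +KTS KO supporting class is therefore only the cells whose clusters met the rule. Cell classes were rebuilt from the counts, and the names stand for their markers only.

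Gadd45g, whose product starts the relay, is shown first by its upstream sequence because it carried the highest counts of the route. The gene (ENSMUSG00000021453) is on the plus strand of chr13:51846678-51848468 in GRCm38, and the RefSeq table for GRCm38.p6 gives these 250 bases before its start, at chr13:51846425-51846674, with a CCAAT and a TATAAA match in capitals.
Gadd45g: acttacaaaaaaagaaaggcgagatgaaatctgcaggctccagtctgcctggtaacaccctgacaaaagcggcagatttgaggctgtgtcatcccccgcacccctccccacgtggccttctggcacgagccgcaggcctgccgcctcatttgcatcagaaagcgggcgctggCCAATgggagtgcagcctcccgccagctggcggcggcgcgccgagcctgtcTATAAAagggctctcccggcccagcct
This stretch had a GC content of 62% and held 1 CCAAT and 1 TATAAA, searched on both strands. Of 32851 mouse promoter windows of the same length, 33.8% held a CCAAT and 12.4% a TATAAA. The letters GCGTGGG, a core of the sites bound by WT1 and the EGR proteins, were not in this window, and neither were AGATAA and TGATAA, 2 forms of the GATA motif. In all promoter windows these were found in 4.30%, 9.99% and 7.94%.

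For each library the counts of its somatic cells were added up and scaled to CPM with TMM normalization, and groups were compared with edgeR's quasi-likelihood test over 17753 genes, with Benjamini-Hochberg adjustment and a threshold of 0.05. Each group is 2 libraries, so the spread between them is poorly known. In a sum over cells, fewer cells of a type and less RNA per cell cannot be told apart. Levels by cluster, and those of interstitial, coelomic, germ, endothelial and blood cells, are CPM without TMM.

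Gadd45g was the most abundant of the 7 members in every library by UMIs, which are counted at the 3′ end and not per length. In XX wild-type gonads its level was 739.8 and 486 CPM, and in XY wild-type gonads 421 and 559 CPM. The ranges of the sexes overlapped, and XY did not differ from XX in the test (log2 fold change -0.32 ± 0.32 SE, adjusted p = 0.565). XX -KTS KO libraries held 221 and 289 CPM, and XY -KTS KO libraries 395 and 342 CPM. Every -KTS KO library was below both wild-type libraries of its own sex, and the XX -KTS KO libraries were the lowest of the series. XX +KTS KO held 607 and 375 CPM and XY +KTS KO 297 and 499.6 CPM, which overlapped with the wild-type values in each sex.

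**Figure D1:**
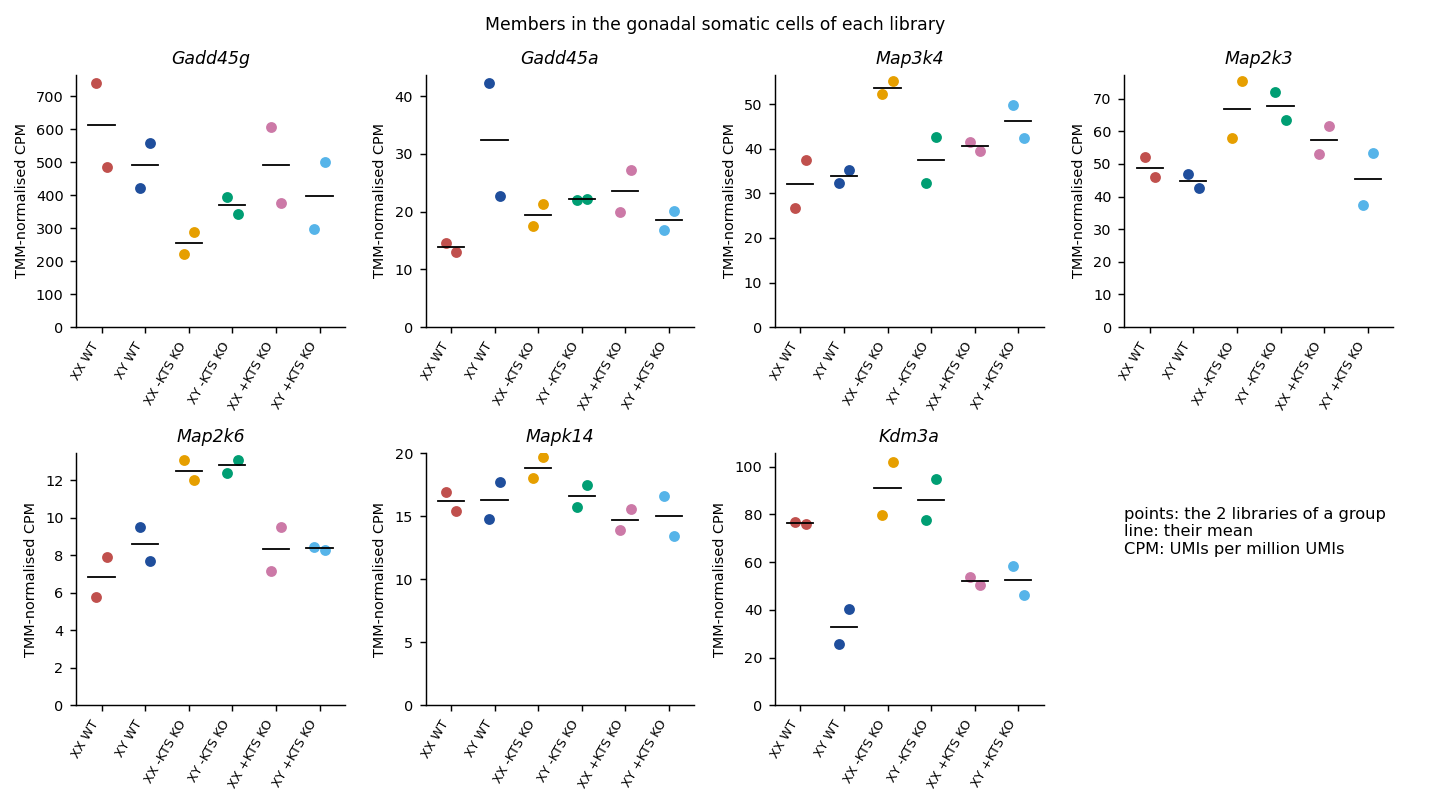
Level of each of the 7 members (TMM-normalised CPM, from 0) in the gonadal somatic cells of every library, by group; each point is 1 library and the bar is the mean of the 2. Gadd45g is lowest in the XX -KTS KO libraries (221 and 289 CPM), and Kdm3a is lowest in the XY wild-type libraries (25.7 and 40.2 CPM).

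In XX gonads without the -KTS form Gadd45g was lower and 2 kinases beneath it were higher. Gadd45g fell by 1.27 ± 0.32 (SE) on the log2 scale, to 0.416 of the wild-type level (adjusted p = 0.0264). Map3k4, the kinase that GADD45 proteins bind, rose from 26.6 and 37.4 CPM to 52.2 and 55.2 CPM (log2 fold change 0.75 ± 0.18, adjusted p = 0.0227). Map2k6, which encodes MKK6, rose from 5.77 and 7.91 CPM to 13.1 and 12 CPM (0.87 ± 0.19, adjusted p = 0.0141). In each of these genes the 2 mutant libraries lay on the same side of the 2 wild-type libraries. The 3 members called of 7 stand beside 16.0% of all genes tested that were called in this comparison. The other 4 members did not pass, with log2 fold changes of 0.49 for Gadd45a, 0.45 for Map2k3, 0.22 for Mapk14 and 0.25 for Kdm3a (adjusted p = 0.242, 0.146, 0.373 and 0.483).

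These 3 calls rested on all but 1 of the 4 libraries. Without XX wild-type replicate 1 the adjusted p was 0.182 for Gadd45g, 0.170 for Map3k4 and 0.120 for Map2k6, without XX -KTS KO replicate 1 it was 0.166, 0.0831 and 0.0863, and without XX -KTS KO replicate 2 it was 0.0789, 0.112 and 0.0544, with each direction kept. Without the clusters led by immediate early genes Gadd45g kept its log2 fold change of -1.27 at an adjusted p of 0.117, and over all kept cells, with no cell type set aside, Map3k4 and Map2k6 had adjusted p of 0.0865 and 0.0916.

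The share of supporting cells, the class richest in Gadd45g, was lower in the same libraries. Supporting cells were 54.3 and 49.5% of XX wild-type somatic cells against 21.3 and 20.5% in XX -KTS KO. Within supporting cells alone, Gadd45g was 1261 and 862 CPM in XX wild-type and 786 and 777 CPM in XX -KTS KO. The mutant libraries were again the lower ones, but by a log2 fold change of -0.44 ± 0.31 that did not pass (edgeR, adjusted p = 0.379). In cells named interstitial progenitors, which are stromal precursors, the XX -KTS KO libraries were on either side of a wild-type library, at 32.3 and 101 CPM against 132 and 93.1 CPM. Markers of blood cells also went with the genotype, since 6 of them summed to 280.4 to 813 CPM in the 4 wild-type libraries and to 90.5 to 199 CPM in the 4 -KTS KO libraries, with none of the 6 at 0. In XX, perivascular markers were apart too, at 15 and 21.3 CPM in wild-type and 31.6 and 29.1 CPM in -KTS KO. So were immune markers, at 0.356 and 0.932 CPM against 1.46 and 0.965 CPM, while germ, endothelial and duct markers overlapped. Blood cells themselves held 32.2 to 73.2 CPM of Gadd45g, and the part of any of these cell types in the somatic difference was not tested.

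Map3k4 and Map2k6 did not behave alike inside the supporting class. Map3k4 rose there too, from 22.6 and 30.6 CPM to 57.1 and 49.9 CPM (1.01 ± 0.19, adjusted p = 0.00414; 0.0572 without XX wild-type replicate 1). Map2k6 was 2.49 and 4.10 CPM in XX wild-type and 3.66 and 4.12 CPM in XX -KTS KO, a difference that did not pass (0.23 ± 0.32, adjusted p = 0.688). Its level was higher in the interstitial clusters, with a median of 12.5 CPM over 8 of them and 3.66 CPM over the 8 supporting clusters. Within interstitial progenitors Map2k6 was 9.14 and 12.7 CPM in XX wild-type and 17 and 15.8 CPM in XX -KTS KO. The XY libraries held 11.3 and 11.9 CPM against 17.1 and 17.8 CPM. In coelomic epithelium it was 10.7 and 11.9 CPM in XX wild-type and 12.5 and 12.5 CPM in XX -KTS KO. These class values were not tested. The groups also differed in which clusters of a class they filled. The interstitial cluster led by Dkk1 was 96.5% XY wild-type cells and held 10.6 CPM of Map2k6. The interstitial cluster led by Sfrp2 was 53.6% XY -KTS KO cells and held 19.1 CPM.

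Gadd45a, the relative of Gadd45g that p53 induces after DNA damage, rose in XX -KTS KO supporting cells. It went from 9.73 and 9.02 CPM to 22.6 and 26.5 CPM (1.39 ± 0.22, adjusted p = 0.0018), and it kept its call with any 1 of the 4 libraries left out. The call was lost with replicate 2 of both groups left out. With Map3k4 it made 2 members called of 7 in supporting cells, beside 17.2% of the 15438 genes tested there. The remaining member of the family, Gadd45b, was not among the 7 and rose from 13.6 and 12 CPM to 61.2 and 78.2 CPM (2.44 ± 0.57, adjusted p = 0.0132), a call that was lost without either XX wild-type library or XX -KTS KO replicate 2, with an adjusted p of up to 0.233 over the alternatives. Gadd45g was thus the only 1 of the 3 GADD45 genes whose estimate was below the wild-type in these cells, and it did not pass. XX wild-type and XX -KTS KO supporting cells came from different clusters, led by Fst and Sprr2d in the former and by Wfdc10 and Wfdc13 in the latter (99.3% of them). Immediate early genes, a sign of dissociation stress, moved with Gadd45a and Gadd45b here, with 8 of 22 higher and 1 lower, beside 17.2% of all genes called, and a median log2 fold change of 1.24 beside 0.00 over all genes. Of 7 other p53 targets tested, Mdm2 was higher, and Ccng1 and Sesn2 were lower (median -0.49). The part of either list in these rises was not tested.

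In XY gonads without the -KTS form the member that rose most was Kdm3a, the demethylase of histone H3. Kdm3a was 25.7 and 40.2 CPM in XY wild-type and 77.5 and 94.9 CPM in XY -KTS KO. Both mutant libraries were above both XY wild-type libraries, and also above the XX wild-type libraries, which held 77.0 and 75.9 CPM. The log2 fold change was 1.39 ± 0.22 (2.62-fold, adjusted p = 0.00199), and it passed under all 15 alternatives run, leaving out of each library included. Inside supporting cells it rose from 27.1 and 44.7 CPM to 132 and 166 CPM (2.05 ± 0.22, 4.15-fold, adjusted p = 7.04e-05), and it passed under all 14 alternatives run there. XY wild-type supporting cells were mostly of clusters led by Tesc (58.7%) and Cpa1 (35.7%), and 99.6% of XY -KTS KO ones were of the cluster led by Wfdc10 and Wfdc13, so these supporting-class values compare different clusters. In the same cells 6 of 22 immediate early genes rose (median log2 fold change 1.01), beside 29.5% of all genes called, and their part was not tested. In interstitial progenitors Kdm3a was 22.7 and 34.6 CPM in XY wild-type and 45.1 and 57.8 CPM in XY -KTS KO. In coelomic epithelium it was 40.4 and 54.3 CPM, over 54 and 167 cells, against 73.7 and 99.5 CPM, over 1089 and 1190 cells. These 2 classes were not tested, and they too compare different clusters. Kdm3a was 26.4 CPM in the interstitial cluster led by Dkk1, 96.5% of it XY wild-type cells. It was 54.8 CPM in the one led by Sfrp2, 53.6% of it XY -KTS KO cells.

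Kdm3a also differed between the sexes in wild-type gonads. XY wild-type was below XX wild-type by a log2 fold change of -1.21 ± 0.22 (adjusted p = 0.00712), a call that was kept with any 1 of the 4 libraries left out. It was lost with replicate 1 of both groups left out. In interstitial progenitors the XY wild-type libraries held 22.7 and 34.6 CPM and the XX wild-type libraries 49.8 and 49.9 CPM, and in cells named coelomic epithelium 40.4 and 54.3 CPM against 60.1 and 59.4 CPM. The XY wild-type libraries were the lower ones in each of these classes, which were not tested. Their coelomic values rest on 54 and 167 cells. The clusters differed by sex as well. The interstitial cluster led by Dkk1 was 96.5% XY wild-type cells, and the coelomic cluster led by Krt19 was 75.4% XX wild-type cells. In XX gonads Kdm3a was 79.9 and 102 CPM in -KTS KO, a range that overlapped with XY -KTS KO, with a log2 fold change of 0.25 from the XX wild-type that did not pass. In XX supporting cells it was 96.7 and 97.8 CPM in wild-type and 148 and 150.3 CPM in -KTS KO, apart but short of the threshold with edgeR (0.62 ± 0.21, adjusted p = 0.0726), which it passed with DESeq2 and with no filter on low counts (adjusted p from 0.0229). The difference between the sexes in the -KTS KO effect on Kdm3a was 1.14 ± 0.31 and missed the threshold (adjusted p = 0.0848), and it passed without XY wild-type replicate 2 (0.0216). Of the 7 members edgeR called 0 in that comparison, in which 3.03% of all genes were called, with 3 at an unadjusted p under 0.05 and 1 called by DESeq2.

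Map2k3, which encodes MKK3, was the second member to rise in XY -KTS KO. It went from 46.8 and 42.5 CPM to 72.0 and 63.6 CPM (0.60 ± 0.19, adjusted p = 0.0463) in somatic cells, and from 23.1 and 28.3 CPM to 67.0 and 55.3 CPM (1.25 ± 0.26, adjusted p = 0.00377) in supporting cells. Mutant and wild-type libraries were apart in both. The somatic call was lost without any 1 of the 4 libraries, and the supporting call, which compares the same different clusters, was kept without each of them. The supporting call was lost with replicate 1 of both groups left out. With Kdm3a this made 2 of 7 members called in somatic cells, beside 23.3% of all genes tested, and 2 of 7 in supporting cells, beside 29.5%. In interstitial progenitors Map2k3 was 56 and 60.1 CPM in XY wild-type and 74.9 and 69.4 CPM in XY -KTS KO. In coelomic epithelium it was 33.3 and 65.9 CPM against 70.5 and 66.1 CPM, and neither class was tested. The XY wild-type coelomic values rest on 54 and 167 cells, and both classes compare different clusters. Map2k6 was 9.49 and 7.72 CPM in XY wild-type and 12.4 and 13.1 CPM in XY -KTS KO and missed the threshold (0.57, adjusted p = 0.0577), which it passed with DESeq2 (0.0486) and with doublets kept (0.0353). Gadd45g did not pass in XY -KTS KO, with -0.41 ± 0.32 in somatic cells (adjusted p = 0.393) and 0.27 ± 0.31 in supporting cells (adjusted p = 0.566), where it was 958 and 950.2 CPM in wild-type and 1148 and 1153 CPM in the mutant.

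**Figure D2:**
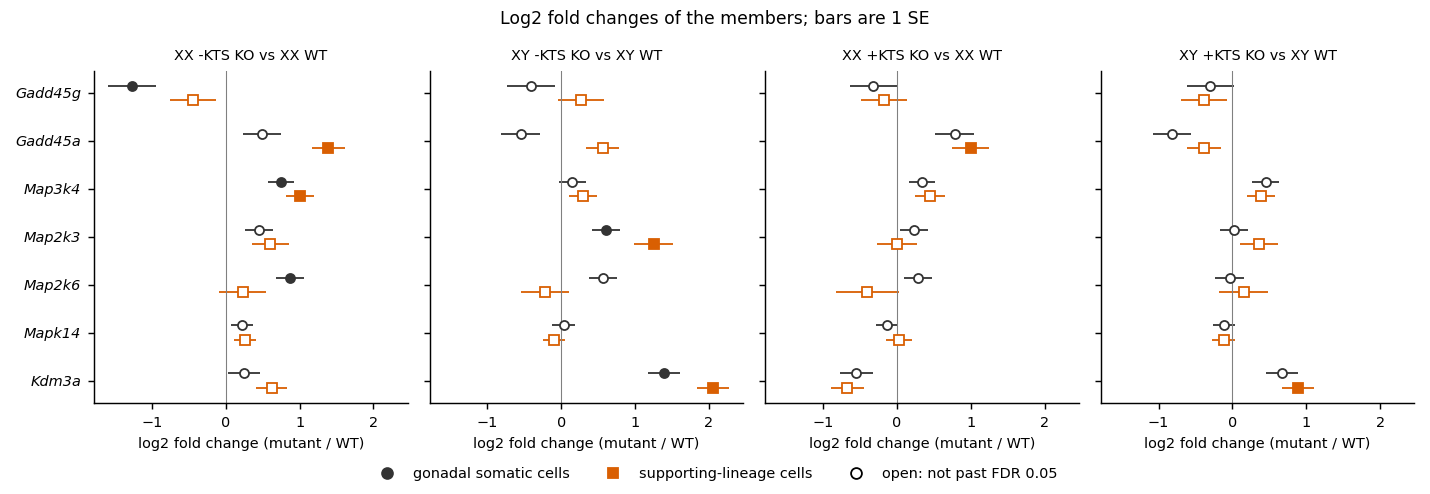
Log2 fold change of each member against the wild-type of the same sex (points, with bars of ± 1 SE from edgeR) in somatic and in supporting cells, for the 4 mutant groups; filled points passed the adjusted threshold of 0.05. Kdm3a in XY -KTS KO is the largest positive change (1.39 in somatic and 2.05 in supporting cells) and Gadd45g in XX -KTS KO the only called negative one (-1.27).

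In gonads without the +KTS form no member passed in the somatic cells of either sex by edgeR. In XX +KTS KO somatic cells edgeR called 0 of 7 members, beside 4.98% of all genes, with 2 at an unadjusted p under 0.05 and 0 called by DESeq2. Gadd45a, at 20 and 27.2 CPM against 14.5 and 13.0 CPM, had the largest estimate (0.78 ± 0.26, adjusted p = 0.140), and Kdm3a followed at 53.6 and 50.6 CPM against 77.0 and 75.9 CPM (-0.55 ± 0.22, adjusted p = 0.207). In supporting cells Gadd45a rose from 9.73 and 9.02 CPM to 14.0 and 24.6 CPM (1.00 ± 0.25, adjusted p = 0.0490), 1 of 7 members beside 4.11% of all genes. Of the XX +KTS KO supporting cells 39.6 and 41.8% were of 2 clusters led by Taf7l and by Sprr2d, other than the 2 that held most XX wild-type ones (77.7 and 14.5%). That class held 325 and 120 cells in the 2 mutant libraries, and the call was lost without XX +KTS KO replicate 2 (0.398) or without XX wild-type replicate 1 or 2 (0.176 and 0.210).

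In XY +KTS KO somatic cells edgeR called 0 of 7 members too, beside 12.2% of all genes, with 3 at an unadjusted p under 0.05 and 2 called by DESeq2. Kdm3a was 58.4 and 46.3 CPM, above both XY wild-type libraries and below both XX wild-type libraries, and missed the threshold (0.67 ± 0.22, adjusted p = 0.0730; 0.0234 without XY wild-type replicate 2). Gadd45a was 16.9 and 20.1 CPM against 42.3 and 22.8 CPM (-0.82 ± 0.26, adjusted p = 0.0701; 0.0123 without XY wild-type replicate 2). Both genes missed the threshold. In supporting cells Kdm3a rose from 27.1 and 44.7 CPM to 71.6 and 61.0 CPM (0.89 ± 0.22, adjusted p = 0.0155), 1 of 7 members beside 21.6% of all genes. This call was lost without XY wild-type replicate 1 (0.117) and without XY +KTS KO replicate 1 (0.114), the library that stood apart, which held 3097 of the 3309 supporting cells of its group. The cluster led by Cst12 made up 89.4% of them, again another cluster than in XY wild-type, and 9 of 22 immediate early genes rose in these cells (median log2 fold change 1.33), whose part was not tested. At a clustering resolution of 1.2, which left 183 supporting cells in replicate 1 and 353 in replicate 2, the adjusted p was 0.0598. Gadd45g in these supporting cells was 1197 and 694 CPM in XX +KTS KO and 499 and 957 CPM in XY +KTS KO, with log2 fold changes of -0.17 and -0.39 that did not pass (adjusted p = 0.847 and 0.392). With log-normalized clustering both passed as decreases, at -1.20 in XX (adjusted p = 0.00697) and at an adjusted p of 0.0157 in XY, and the XY value also passed without XY +KTS KO replicate 2.

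Gadd45a was the member whose level parted the wild-type sexes in the other direction from Kdm3a. It was 42.3 and 22.8 CPM in XY wild-type and 14.5 and 13.0 CPM in XX wild-type (1.24 ± 0.26, adjusted p = 0.0147), with both XY libraries above both XX libraries. With Kdm3a this made 2 members called of 7 between the sexes, beside 13.1% of all genes. In interstitial progenitors Gadd45a was 49.7 and 31.7 CPM in XY wild-type against 24.6 and 20.6 CPM in XX, which was not tested. The interstitial cluster led by Dkk1, 96.5% of it XY wild-type cells, held 47.6 CPM, so the sexes compare different clusters here. The call was lost without XY wild-type replicate 1 (0.100) and without XX wild-type replicate 1 or 2 (0.0757 and 0.108).

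The +KTS KO effect on Gadd45a had opposite signs in the 2 sexes, and the test of that difference gave -1.59 ± 0.37 (adjusted p = 0.0462). It was the 1 member of 7 called in this comparison, in which 3.84% of all genes were called. The call was lost without 6 of the 8 libraries, at adjusted p of 0.0646 to 0.168, and at 0.0613 without the clusters led by immediate early genes. Kdm3a had the next largest difference between the sexes, at 1.22 ± 0.31 (adjusted p = 0.0599; 0.0171 without XY wild-type replicate 2 and 0.0358 without XY +KTS KO replicate 2).

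Mapk14, the p38 alpha kinase at the end of the relay, passed in none of the comparisons in somatic or supporting cells, with edgeR or with DESeq2. Its level was between 13.4 and 19.7 CPM in the 12 libraries, with the highest 2 values in XX -KTS KO (18.0 and 19.7 CPM) and the lowest in XY +KTS KO replicate 2. The log2 fold changes in somatic cells were 0.22 and 0.03 without the -KTS form and -0.13 and -0.11 without the +KTS form, for XX and XY in turn, and none passed (adjusted p = 0.373 to 0.909). Across the 8 supporting clusters Mapk14 was 11.8 to 17.3 CPM, and its levels among germ cells were higher, at 23.2 to 44.1 CPM over the libraries.

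The other p38 kinase genes, which were not among the 7 members, did move. Mapk13 encodes p38 delta, and it held 114 and 108 CPM in XY wild-type against 12.7 and 9.06 CPM in XX wild-type (3.36 ± 0.33, 10.2-fold, adjusted p = 0.000347). It was 11.1 and 10.6 CPM in XY -KTS KO and 12.4 and 5.94 CPM in XY +KTS KO, so all 4 XY mutant libraries were near the XX level. The log2 fold changes were -3.36 ± 0.33 and -3.60 ± 0.33 (adjusted p = 0.000146 and 0.000495), and each passed under all 15 alternatives run. Inside supporting cells of these 2 groups Mapk13 fell by 2.83 and dropped by 3.85 on the same scale (adjusted p = 0.000176 and 0.000152), again between different clusters of the class. Over the 4 p38 kinase genes, XX -KTS KO somatic cells had 1 lower (Mapk12), XY -KTS KO had 2 lower (Mapk12 and Mapk13), XX +KTS KO had 1 higher (Mapk11), and XY +KTS KO had 2 higher (Mapk11 and Mapk12) and 1 lower (Mapk13). Of all genes 16.0, 23.3, 4.98 and 12.2% were called in these 4 comparisons in turn. Mapk11 was at most 2.03 CPM in the somatic cells of any library, and its call in XX +KTS KO held under 5 of 15 alternatives and was lost without any 1 of the 4 libraries. The calls of Mapk11 and Mapk12 in the other groups were also lost without 2 or 3 of the 4 libraries.

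**Figure D3:**
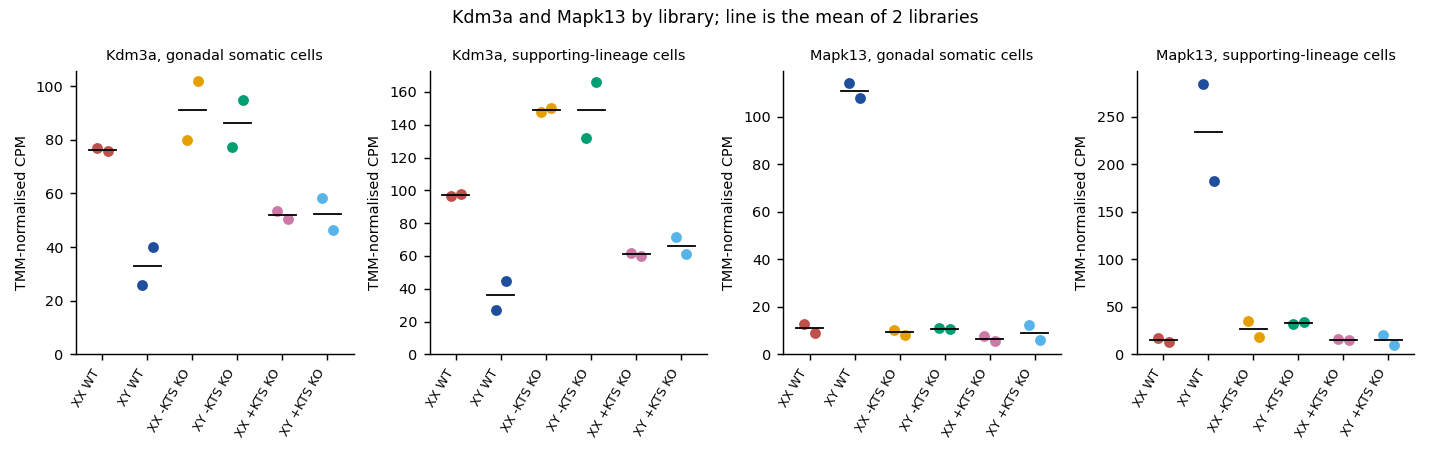
Kdm3a and Mapk13 (TMM-normalised CPM, from 0) in the somatic and supporting cells of each library, by group; each point is 1 library. In somatic cells the XY wild-type libraries are lowest for Kdm3a (25.7 and 40.2 CPM) and highest for Mapk13 (114 and 108 CPM).

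The wider p38 pathway was read from lists of its known parts, by counts that stand beside the same 16.0, 23.3, 4.98 and 12.2% of all genes called in somatic cells. Of 15 MAP3Ks and partners upstream of p38, 1 rose (Map3k4) and 1 fell (Map3k20) in XX -KTS KO somatic cells, and the median log2 fold change was 0.07 beside 0.01 over all genes. XY -KTS KO had 1 higher (Tab1) and 1 lower (Map3k20) with a median of 0.14, XX +KTS KO had 0 called by edgeR, 0 at an unadjusted p under 0.05 and 0 by DESeq2 with a median of 0.01, and XY +KTS KO had 2 higher (Map3k1 and Map3k20) with a median of 0.25 beside 0.05 over all genes. Among the 16 substrates and effectors, Mapkapk2 and Mknk2, both kinases that p38 activates, rose in XX -KTS KO (0.50 and 0.61, adjusted p = 0.0264 and 0.0231), where the median of the list was -0.15. Both calls were lost without any 1 of the 4 libraries and over all kept cells, and held under 8 of 15 alternatives. In supporting cells, between different clusters, Mapkapk2 rose in XX -KTS KO (0.58, adjusted p = 0.034) but fell in XY -KTS KO (-0.54, adjusted p = 0.0306). It was also called lower in XY +KTS KO supporting cells. The 2 -KTS KO calls were lost without any 1 of the 4 libraries. Of all genes 17.2, 29.5 and 21.6% were called there in turn. Among somatic cells Mknk2 rose and Mef2c fell in XY -KTS KO, Mef2c rose in XX +KTS KO, and Mef2c fell in XY +KTS KO. The Mknk2 call in XY -KTS KO was lost without 3 of the 4 libraries, and that of Mef2c in XX +KTS KO without any 1 of the 4, while the 2 decreases of Mef2c passed under all 15 alternatives. Mef2c, a transcription factor that p38 phosphorylates, was 68.3 and 65.9 CPM in XY wild-type, 12.2 and 12.1 CPM in XX wild-type, 9.67 and 8.20 CPM in XY -KTS KO and 30.1 and 21.1 CPM in XY +KTS KO. Of 7 phosphatases and inhibitors of p38, Dusp16 rose and Ptpn7 fell in both -KTS KO groups, Dusp10 rose in XY +KTS KO, and in XX +KTS KO edgeR called 0, with 1 at an unadjusted p under 0.05 and 0 called by DESeq2.

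Genes of the JNK and ERK branches stand beside these for scale. Of 10 such kinases, Map2k5 alone fell in XX -KTS KO, Map2k1 and Map2k5 fell and Mapk7 rose in XY -KTS KO, Map2k5 alone rose in XX +KTS KO, and Map2k1, Map2k5 and Mapk3 fell and Mapk7 rose in XY +KTS KO, beside the shares of all genes given above. Map2k5, which encodes the kinase of ERK5, was 90.9 and 70.2 CPM in XY wild-type and 17.7 and 18.2 CPM in XY -KTS KO. It fell by 2.17 ± 0.14 on the log2 scale there (adjusted p = 1.75e-05) and by 1.03 ± 0.13 in XY +KTS KO (adjusted p = 0.00193). In XX +KTS KO it rose from 27.8 and 28.4 CPM to 46.2 and 46.1 CPM (0.72 ± 0.13, adjusted p = 0.0167), a call that was lost without any 1 of the 4 libraries. Of 8 histone modifiers named as regulators of Sry, Kdm3a and Ehmt2 rose in XY -KTS KO, Cbx2 rose in XX -KTS KO, Ehmt2 rose in XY +KTS KO, and in XX +KTS KO edgeR called 0, with 2 at an unadjusted p under 0.05 and 0 called by DESeq2.

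Gadd45g was concentrated in a few cell types. Summed over all libraries, 12 of the 35 clusters held over 500 CPM of Gadd45g, from 566 to 1447 CPM, and the next cluster held 281 CPM. These 12 were the 8 supporting clusters, 3 unnamed clusters, of which 2 had Cyp11a1 and Pnmt among their leading genes, which act in steroid and catecholamine synthesis, and 1 endothelial cluster led by Etv2. XY wild-type gave 72.5% of the cells of this endothelial cluster. All endothelial cells held 463 and 345 CPM in XY wild-type, and 33.6 to 195 CPM in the other libraries that had a value. The top cluster was of pre-supporting cells of mostly XX wild-type origin, with Sprr2d and Fst among its leading genes. By library, Gadd45g was 2.64 to 18 CPM in germ cells, 32.3 to 132 CPM in interstitial progenitors and 52.3 to 192 CPM in coelomic epithelium, against 499 to 1261 CPM in the supporting class.

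**Figure D4:**
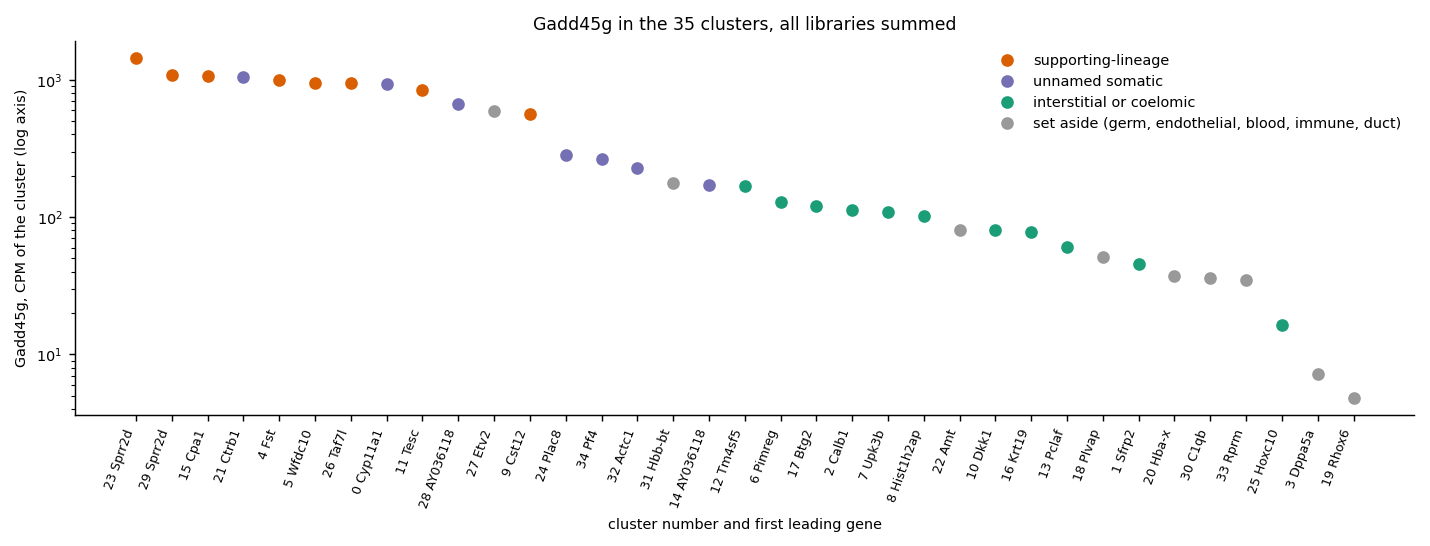
Gadd45g (CPM, log scale) in each of the 35 clusters, summed over all libraries, by the class of the cluster; each point is 1 cluster. The 12 clusters above 500 CPM are set off from the other 23, which reach 281 CPM.

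The other members drew other lines between cell types. Map2k6 ran the other way from Gadd45g, with 2.25 to 6.08 CPM over supporting clusters and 10.6 to 19.1 CPM over interstitial clusters. Kdm3a spread widely inside the supporting class, from 22.1 to 143 CPM over its 8 clusters, and was 7.66 to 17.6 CPM in endothelial cells by library. Map3k4 was highest in germ cells, with a median over libraries of 51.8 CPM, and lowest in blood cells at 5.10 CPM. Map2k3 was lower in germ cells (median 18.2 CPM) than in interstitial progenitors (62.1 CPM), and Gadd45a had its highest class median in blood cells (37.4 CPM). These orders are descriptions over clusters and classes of the same libraries, and no test was run on them.

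The share of cells in which Gadd45g was detected was compared over cells of equal depth. Each cell was thinned to 5000 UMIs, since detection grows with depth, and shallower cells were left out. This dropped 1584 of 6437 cells in XY +KTS KO replicate 1 and 872 of 4045 in XX -KTS KO replicate 2, and 171 to 410 cells in the other libraries. Gadd45g was then detected in 65.1 and 57.8% of somatic cells in XX wild-type, in 47.9 and 57.8% in XY wild-type, in 27.6 and 39.8% in XX -KTS KO and in 37.1 and 34.3% in XY -KTS KO. The 4 -KTS KO libraries were all below the 4 wild-type libraries. Their mean was 34.7% ± 5.22 (SD, n = 4) against 57.1% ± 7.05 (SD, n = 4), and the two-sided exact permutation test over libraries gave p = 0.0286, the smallest that 4 against 4 can reach. In unthinned cells the means were 46.8 and 67.9%, with the same exact permutation p. Supporting cells, the class richest in Gadd45g, were 20.5 to 27.7% of somatic cells in the -KTS KO libraries and 37.9 to 54.3% in the wild-type ones. The share over somatic cells mixes these classes, and the part of the mix in the difference was not tested.

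In +KTS KO the share was 61.0 and 51.6% in XX and 50.2 and 55.2% in XY. These values were inside the wild-type range, with a mean of 54.5% ± 4.83 (SD, n = 4), a difference of -2.64 percentage points and an exact permutation p = 0.543. Within supporting cells the share was 76.4 to 92.8% over all 12 libraries, with the lowest value in XY +KTS KO replicate 1. The 4 -KTS KO libraries, at 79.6 to 84.8%, were all below the 4 wild-type libraries, at 86.7 to 92%, a difference that was not tested. Germ cells, which should hold little Gadd45g, gave 2.05 to 6.36% after thinning at median depths of 21913 to 60206 UMIs, against median depths of 9813 to 18917 UMIs in somatic cells. Somatic cells outside the supporting class gave 12.5 to 31.1% in the wild-type and -KTS KO libraries, and 27.5 to 59.6% in +KTS KO. Among these were the unnamed clusters with Cyp11a1 and Pnmt among their leading genes, at 937 and 1052 CPM of Gadd45g. XX +KTS KO gave 64.6 and 59% of the cells of that pair.

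**Figure D5:**
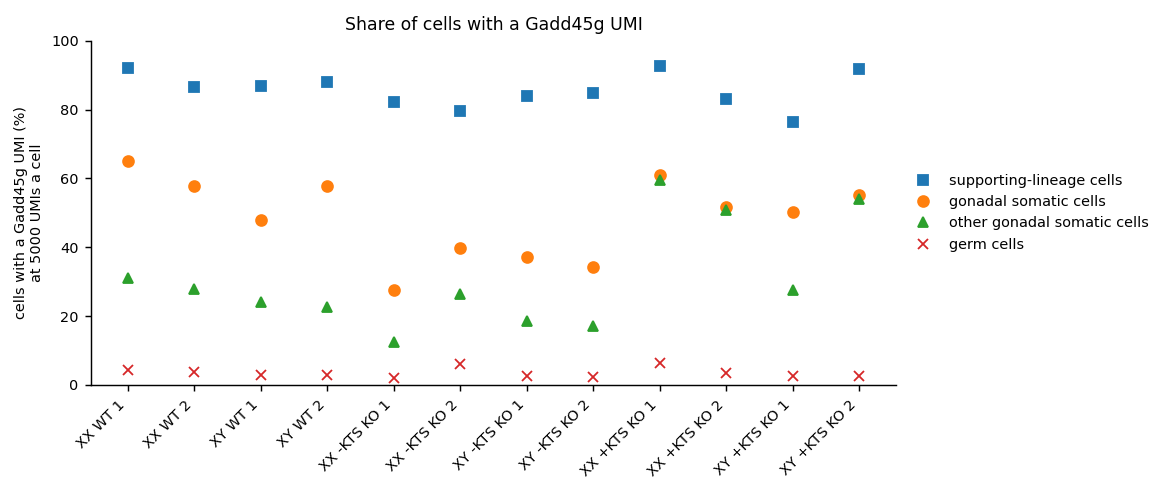
Share of cells with at least 1 Gadd45g UMI after thinning to 5000 UMIs (percent), by group, for gonadal somatic cells, supporting cells, the other somatic cells and germ cells; each point is 1 library. In somatic cells the 4 -KTS KO libraries sit between 27.6 and 39.8%, below the 4 wild-type libraries at 47.9 to 65.1%.

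Sry (ENSMUSG00000069036, minus strand of chrY:2662471-2663658 in GRCm38), the end point of the route, was close to the limit of detection in these counts. Whether the counted gene model reaches the 3′ end of the transcript was not checked, so low counts need not mean low expression. Summed over somatic cells it held 26 and 58 UMIs in XY wild-type, 50 and 62 UMIs in XY -KTS KO, and 20 and 31 UMIs in XY +KTS KO, or 0.376 and 0.892, 0.711 and 0.758, and 0.243 and 0.317 CPM. The XY -KTS KO libraries were inside the wild-type range and the XY +KTS KO libraries below it. Neither difference passed, at 0.21 ± 0.49 (adjusted p = 0.793) and -1.17 ± 0.51 (adjusted p = 0.175), and the counts behind them are low. Within supporting cells Sry was 0.993 and 1.57 CPM in XY wild-type, 1.98 and 2.29 CPM in XY -KTS KO and 0.461 and 0.678 CPM in XY +KTS KO. These levels rest on 25 and 55, 41 and 48, and 18 and 2 UMIs in turn. Both XY -KTS KO libraries were above the wild-type ones there and both XY +KTS KO libraries below, and neither difference passed (0.72 ± 0.42, adjusted p = 0.242, and 0.0322 with doublets kept; -1.37 ± 0.52, adjusted p = 0.0998). With doublets kept the cells were clustered anew, and the XY wild-type supporting class held 2227 and 1744 cells, against 2551 and 2521 as reported. The cluster led by Cpa1 was then unnamed and outside the class. In the reported clustering the cluster led by Cpa1 was 83.9% XY wild-type cells and held the most Sry (1.73 CPM). The part of this change was not tested. Each XX library counted 0 Sry UMIs, which allows up to 3 a library.

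Cells with a Sry UMI were mostly cells with Gadd45g. After thinning, each XY library held 4 to 20 somatic cells with a Sry UMI, 88.9 to 100% of which also held Gadd45g in 5 libraries and 80.0% (95% exact interval 56.3 to 94.3%) in XY -KTS KO replicate 2. Of the other somatic cells 34.1 to 57.6% held Gadd45g. Most of the Sry cells were in the supporting class, where Gadd45g was common with or without Sry, at 76.3 to 91.7% of cells with no Sry UMI. XY +KTS KO replicate 2 was the exception, since its 9 Sry cells all lay outside the class. That library held 212 supporting cells and 3036 cells in unnamed clusters. The intervals cover counting error only.

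Sox9 (ENSMUSG00000000567), the target of SRY and driver of Sertoli cells, was 168 and 245 CPM in XY wild-type and 3.83 and 8.03 CPM in XX wild-type. It fell to 15.4 and 15.9 CPM in XY -KTS KO (by 3.72 ± 0.73 on the log2 scale, adjusted p = 0.00582) and to 41.9 and 6.29 CPM in XY +KTS KO (by 3.10 ± 0.71, adjusted p = 0.0222). The -KTS KO call was lost with 1 library a group, without replicate 1 and without replicate 2. Over the alternatives the +KTS KO log2 fold change ran from -5.28 to -2.03. The higher of the +KTS KO values was from replicate 1, the library that stood apart and held most of the supporting cells of its group. The +KTS KO call was lost without XY wild-type replicate 1 or 2, with an adjusted p of up to 0.0626 over the alternatives.

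The genes most like each member over the 12 libraries were ranked by Pearson's r of log2 levels among 6842 expressed genes, as a description, since libraries of 1 group share a genotype. For Gadd45g they were Mettl24 (r = 0.922), Stxbp2 (0.910), Nudt14 (0.909), Ppcs (0.907) and Prr13 (0.904). Mettl24 was also second over the 35 clusters (0.892), after St3gal5 (0.915). Mettl24 held 89.2 and 69.2 CPM in XX wild-type and 43.8 and 35.7 CPM in XX -KTS KO, so its 2 mutant libraries were also the lowest pair. The closest gene was Reep1 for Kdm3a (0.971), Zfp608 for Map2k6 (0.963), Dhx36 for Map3k4 (0.945), Thoc1 for Map2k3 (0.942), Ccdc34 for Gadd45a (0.930) and Trim28 for Mapk14 (0.920). Among the members themselves Gadd45g ran opposite to Map2k6 (r = -0.83) and Map3k4 (r = -0.76) over the same 12 libraries, and the other pairs with Gadd45g were between -0.48 and -0.12.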

How the data were processed

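The deposited files are raw UMI counts per gene and cell barcode, which the authors made with Cell Ranger 6.0 per the labels (version 3 chemistry in the study's methods, version 2 in the labels). The members and lists were chosen with earlier results of these data known. Barcodes below 1000 genes or above 10% mitochondrial UMIs were dropped, doublets were removed by Scrublet score at 0.8% per 1000 barcodes, and the 76976 left of 83513 passing barcodes were clustered with sctransform 0.4.2 and Seurat 5.3.0 on 3000 genes that left out the members and lists. Supporting cells were named from 3 or more fixed markers. UMIs were summed per library and class and tested with edgeR 4.0.16 (6 groups, TMM, filterByExpr, quasi-likelihood), SE being the log2 fold change over the root of F. Named pathway genes were at most 8 called genes a comparison with the largest change at 20 CPM or more, beside the members. Other called pathway genes, Mapk11 and Mapk12 among them, are named only to identify a count, a choice made with their values known. Replicates are separate libraries of independent samples per the study's methods. Alternatives were DESeq2 1.42.0, its size factors, no filter, a replicate block, doublets kept, other clusterings, no stressed clusters, all kept cells and libraries left out. Scripts were tested on simulated data.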

Additional observations from a re-analysis of the deposited data

Results flagged for a closer look

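In 7 results the effect of a genotype differed between XX and XY gonads by the interaction term of edgeR (quasi-likelihood, Benjamini-Hochberg over all genes). Of all genes 3.03% were called for the -KTS KO difference and 3.84% for the +KTS KO difference. The term was read for the members, Sox9, Gadd45b, Mapk11, Mapk12, Mapk13, Mef2c, Mapkapk2, Mknk2 and Map2k5. Mapk13, Mef2c and Map2k5 were picked with their calls in these data known, so their terms are no separate evidence. For the -KTS KO effect the difference, XY minus XX on the log2 scale, was -3.13 for Mapk13 (adjusted p = 0.00833), -2.34 for Mef2c (adjusted p = 0.00493) and -1.33 for Map2k5 (adjusted p = 0.00882). For the +KTS KO effect it was -2.90 for Mapk13 (adjusted p = 0.00917), -2.33 for Mef2c (adjusted p = 0.00371), -1.75 for Map2k5 (adjusted p = 0.00191) and -1.59 for Gadd45a (adjusted p = 0.0462). Gadd45a was the only one of the 7 members among them. In Mapk13, Mef2c, Map2k5 and Gadd45a the wild-type sexes differed as well, with higher levels in XY, and the terms use the same wild-type libraries. That Gadd45a call was lost without XY wild-type replicate 1 and without either XX wild-type library. The -KTS KO difference of Map2k5 lost its call without XX wild-type replicate 1 and over all kept cells, and the +KTS KO difference of Mapk13 over all kept cells (adjusted p = 0.103). With 1 library a group, the 3 -KTS KO differences lost their calls without replicate 1 and without replicate 2, and the +KTS KO difference of Map2k5 without replicate 1.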

How the results depend on the processing

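Of 1644 repeats of 106 fold changes (the members in somatic cells and every called named gene), 1349 kept direction and side of the threshold, 218 kept direction and lost the call, 22 gained one and 55 turned sign, none of them a called value. With 2 libraries a group, calls near the threshold moved with single libraries. The replicate numbers did not pair the libraries (correlations between groups of -0.20 to 0.17). With the number as a block, members called went from 2 to 1 in XY -KTS KO somatic cells, from 1 to 0 for the +KTS KO difference between the sexes and from 1 to 0 in XX +KTS KO supporting cells. In somatic cells, all kept cells gave 1 member in XX -KTS KO (3 as reported), 1 in XY -KTS KO (2), 1 in XY +KTS KO (0), 1 for XY against XX (2) and 0 for the +KTS KO difference (1). DESeq2 and doublets kept each gave 3 in XY -KTS KO (2), DESeq2 gave 2 in XY +KTS KO, 1 for the -KTS KO difference and 2 for the +KTS KO difference, no filter gave 2, 1 and 2, and doublets kept gave 1 in XY +KTS KO and 2 for the +KTS KO difference. DESeq2 size factors gave 1 in XY -KTS KO. The +KTS KO difference lost its call without immediate early clusters (0) and with log-normalized clustering (0). In supporting cells, no filter gave 4 and DESeq2 3 in XX -KTS KO (2), doublets kept gave 3 in XY -KTS KO (2), and no filter gave 2 in XX +KTS KO (1). XX +KTS KO gave 0 with doublets kept, 0 without immediate early clusters and 3 with log-normalized clustering, and XY +KTS KO gave 2 with log-normalized clustering and 0 at resolution 1.2 (1). With libraries left out, somatic counts ran from 0 to 3 in XX -KTS KO, 1 to 2 in XY -KTS KO, 0 to 2 in XY +KTS KO, between the wild-type sexes and for both differences, and supporting counts from 1 to 2 in both -KTS KO groups, 0 to 1 in XX +KTS KO and 0 to 2 in XY +KTS KO. The cause of these moves was not tested. The -KTS KO difference in the Gadd45g share was -24.1 and -20.8 points with a replicate left out, where exact permutation of 2 against 2 cannot go below 0.333, and the +KTS KO difference was -4.40 to -0.872 and turned to 1.35 points over all kept cells.

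Uncalled fold changes of the members near 0 that turned sign in somatic cells were Mapk14 in XY -KTS KO (-0.04 with doublets kept, -0.21 over all kept cells), Map2k3 in XY +KTS KO (-0.02 with DESeq2 and its size factors), Map2k6 in XY +KTS KO (0.03 with doublets kept, 0.18 without immediate early clusters), Map3k4 for XY against XX (-0.03 over all kept cells), and, for the +KTS KO difference, Gadd45g (-0.01 with DESeq2 and its size factors, -0.29 without immediate early clusters) and Mapk14 (-0.03 with DESeq2 and its size factors, -0.01 with no filter, -0.05 with doublets kept). With libraries left out, fold changes that turned ran in XY -KTS KO from -0.07 to 0.34 for Map3k4 and -0.09 to 0.17 for Mapk14, in XX +KTS KO from -0.71 to 0.02 for Gadd45g and -0.29 to 0.02 for Mapk14, and in XY +KTS KO from -0.72 to 0.04 for Gadd45g, -0.35 to 0.33 for Map2k3, -0.19 to 0.12 for Map2k6 and -0.40 to 0.14 for Mapk14. For XY against XX they ran from -0.83 to 0.20 for Gadd45g, -0.15 to 0.34 for Map3k4, -0.04 to 0.70 for Map2k6 and -0.21 to 0.20 for Mapk14. For the -KTS KO difference they ran from -0.13 to 0.46 for Map2k3, -0.79 to 0.17 for Map2k6 and -0.37 to 0.00 for Mapk14, and for the +KTS KO difference from -0.40 to 0.41 for Gadd45g, -0.17 to 0.33 for Map3k4, -0.49 to 0.03 for Map2k3 and -0.42 to 0.43 for Mapk14. In supporting cells the uncalled fold changes that turned, over all alternatives, ran in XX -KTS KO from -0.10 to 0.63 for Map2k6, in XY -KTS KO from -0.25 to 0.02 for Mapk14, in XX +KTS KO from -1.20 to 0.17 for Gadd45g, -0.24 to 0.57 for Map2k3, -1.71 to 1.08 for Map2k6 and -0.07 to 0.10 for Mapk14, and in XY +KTS KO from -0.94 to 0.04 for Gadd45g, -0.07 to 0.76 for Map2k3, -0.07 to 0.36 for Map2k6 and -0.34 to 0.04 for Mapk14. Sry in XY -KTS KO somatic cells ran from -0.28 to 0.97.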
